A study of Mus musculus with 3 samples.

Results

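Gene expression in fetal liver and in adult liver was compared across all genes of an expression array, with attention to whole gene families and to isozymes, the alternative forms of an enzyme or transporter encoded by separate genes. The adult liver sample came from C57BL/6 mice of 12 weeks and the fetal liver sample from C57BL/6 mice at gestation day 13.5. No genetic change, treatment or diet is given in the labels for either group, nor are the sex and number of the animals or whether tissue of several animals was pooled. These are 2 of the 3 samples of the series. The other, C57BL/6 bone marrow, is given beside them where a member is described. Genes were taken by name from the probes of the liver arrays, and of 19809 named genes 14228 could be compared, 12229 of them well above background in both livers and 1999 in only 1 of them. A further 5199 were not well above background in either liver and 382 gave no fold above 1 against the detection floor. With 1 array a side, everything below describes these RNA samples, and no spread between animals is known.

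The liver of a mid-gestation mouse embryo is a blood-forming organ. Its hepatoblasts, the precursors of hepatocytes and bile duct cells, lie among red cell precursors, megakaryocytes and myeloid cells. The adult liver consists mainly of non-dividing hepatocytes that make plasma proteins, glucose, bile acids and urea and that clear foreign compounds. Many metabolic steps are carried out by different isozymes in hepatocytes and in growing or blood-forming cells, and the forms of a transporter or carrier protein likewise differ between cell types. In bulk tissue, fewer cells of a type and less RNA per cell cannot be told apart.

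The array carried 43379 gene spots. A signal below is the processed intensity of a probe, in arbitrary units, and a fold is taken after each array was divided by its own 75th percentile, which was 296 in the adult, 387 in the fetal liver and 894 in bone marrow. Signals of different probes are not comparable with each other, so all folds are between tissues for 1 probe. Well above background were 52.6% of gene spots on the adult array and 58.7% on the fetal array, and no spot was saturated. Where a probe was not well above background on 1 side, the fold is written "at least" and had as its base whichever was greater, that probe's signal or the array's lowest signal well above background, 18.9 in adult and 15 in fetal liver. Medians of families and lists take such bounds at their written size, so a median built on many bounds is a low estimate. Among probes printed on 10 spots, the SD of a single spot's log2 signal had a median of 0.067 in adult and 0.061 in fetal liver, and that of a fetal minus adult difference had a median of 0.091 and a 95th percentile of 0.27. That spread covers spots on an array, not RNA preparations or animals. The 3 arrays shared 1 slide and 1 scan.

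Both labels were checked against marker genes. All 9 hepatocyte markers on the array were well above background in adult liver and 7 of them in fetal liver, where Alb, the gene of serum albumin, still gave a signal of 67900. All 5 hepatoblast markers were well above background in fetal liver, and all 5 were at least 4-fold higher there, with a median of at least 355-fold. Among them Dlk1, a membrane protein of hepatoblasts, gave 19.5 in the adult, 9060 in the fetal liver and 11.5 in bone marrow. The imprinted RNA H19 gave 49.5, 19400 and 85.4 in the same order. Both genes were thus high in fetal liver and low in the other tissues.

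At least 4-fold higher in fetal liver were 1705 genes (12.0% of those compared), and 2020 (14.2%) were higher in adult liver by the same measure. Folds, with bounds taken at their lower limit, were more often extreme on the adult side. Bounds were 500 of the fetal and 414 of the adult calls. Past 16-fold lay 471 genes towards fetal and 699 towards adult liver, and past 64-fold 155 and 271. Fetal-side calls were 45.8% of all calls under the scaling used, but 64.2% when the arrays were scaled to 7 spike-in control probes, which shifts every gene by 0.54 on the log2 scale towards fetal liver. Of the genes measured in both livers 49.4% lay within 2-fold of each other, and Pearson's r of their log2 levels, across genes and not replicates, was 0.705. The dim side lay within 4-fold of the lowest signal well above background for 410 of the 1205 measured fetal calls and 361 of the 1606 measured adult calls, and the size of those folds is uncertain.

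**Figure D1:**
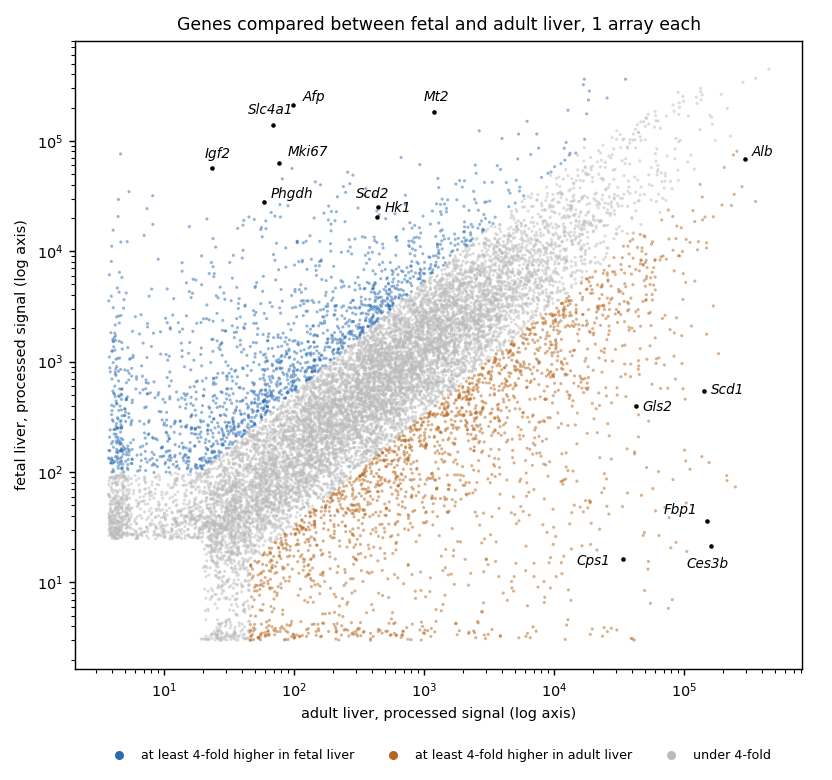
Processed signal of each gene compared, adult liver on the horizontal and fetal liver on the vertical axis, both logarithmic, 1 array each. Genes at least 4-fold higher in fetal liver (1705) are blue, those at least 4-fold higher in adult liver (2020) are orange and the rest grey, and named points such as Igf2, Afp, Gls2 and Scd1 lie far from the grey band.

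The albumin family shows how sharply close relatives can part. Its 4 members, albumin (Alb), alpha-fetoprotein (Afp), afamin (Afm) and the vitamin D-binding protein (Gc), are plasma carriers whose genes are neighbours on chromosome 5. The Afp probe gave 99.1 in the adult, 210480 in the fetal liver and 326 in bone marrow, a level 1624-fold higher in fetal liver. Alb gave 293000, 67900 and 6.21 and was 5.64-fold higher in adult liver. Afm gave 30200, 2960 and 12.4, or 13.3-fold higher in adult liver, and Gc gave 61000, 965 and 26.9, or 82.7-fold higher in adult liver. So Afp alone of the 4 was high in fetal and low in adult liver, and the other 3 were high in adult liver, by amounts that differed among them.

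The promoters of these 4 genes are shown because relatives that differ in opposite directions share a sequence feature. The liver factor HNF1 binds a motif searched here as GTTAATNAT on both strands in 300 bases around each start, a choice made after the values were known. It matched in 4 of the 4 genes, against 0.836% of 27025 promoters of the RefSeq table, 0.664% of the compared genes, 0.443% of the genes higher in fetal liver (6 of 1354) and 2.45% of those higher in adult liver (39 of 1591). The match began 105 bases before the start in Afp, 138 in Afm, 52 in Gc and 32 in Alb. The motif of FOXA factors, another family of liver regulators, searched as TGTTTAC or TGTTTGC, was in 2 of the 4, in 5.69% of genes higher in fetal liver, 8.74% of those higher in adult liver and 6.44% of all compared. A match is a description of the letters and not a site of binding, and none of the motifs searched contains another. The 170 bases before each start follow, read 5′ to 3′ along the gene, from RefSeq on GRCm38.p6, with the match in capitals.
Afp, chr5:90490544-90490713, plus strand: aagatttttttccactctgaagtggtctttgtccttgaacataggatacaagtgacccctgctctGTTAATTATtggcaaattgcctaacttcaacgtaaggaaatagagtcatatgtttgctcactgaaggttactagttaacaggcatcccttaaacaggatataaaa
Afm, chr5:90518779-90518948, plus strand: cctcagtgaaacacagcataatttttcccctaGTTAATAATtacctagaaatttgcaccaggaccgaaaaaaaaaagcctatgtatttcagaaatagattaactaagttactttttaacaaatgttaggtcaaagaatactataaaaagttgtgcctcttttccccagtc
Gc, chr5:89457899-89458068, minus strand: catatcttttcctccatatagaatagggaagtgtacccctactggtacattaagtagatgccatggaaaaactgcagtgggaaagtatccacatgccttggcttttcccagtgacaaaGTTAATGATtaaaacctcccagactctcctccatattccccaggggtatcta
Alb, chr5:90460700-90460869, plus strand: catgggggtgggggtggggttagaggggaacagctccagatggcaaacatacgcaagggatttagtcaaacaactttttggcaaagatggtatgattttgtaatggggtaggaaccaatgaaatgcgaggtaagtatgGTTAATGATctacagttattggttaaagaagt

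Alternative forms were then gone through set by set. Of 88 sets of isozymes and close paralogs, with 337 genes, 79 had 2 or more members compared. In 20 of these at least 1 member was 4-fold or more higher in fetal liver and at least 1 other in adult liver, with 24 fetal and 37 adult forms in all. The background shares of 12.0% and 14.2% are of single genes and give no base for a count of sets. A set with more members compared can more easily hold a call each way, and no expected count was computed. The sets were drawn up with earlier results known. Under all 10 alternative settings 7 of the 20 sets kept both directions (malic enzyme, glucose transporters, SNAT transporters, stearoyl-CoA desaturase, carbonic anhydrase, insulin-like growth factors and the albumin family), and transferrin receptors did so under all but the 8-fold threshold.

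**Figure D2:**
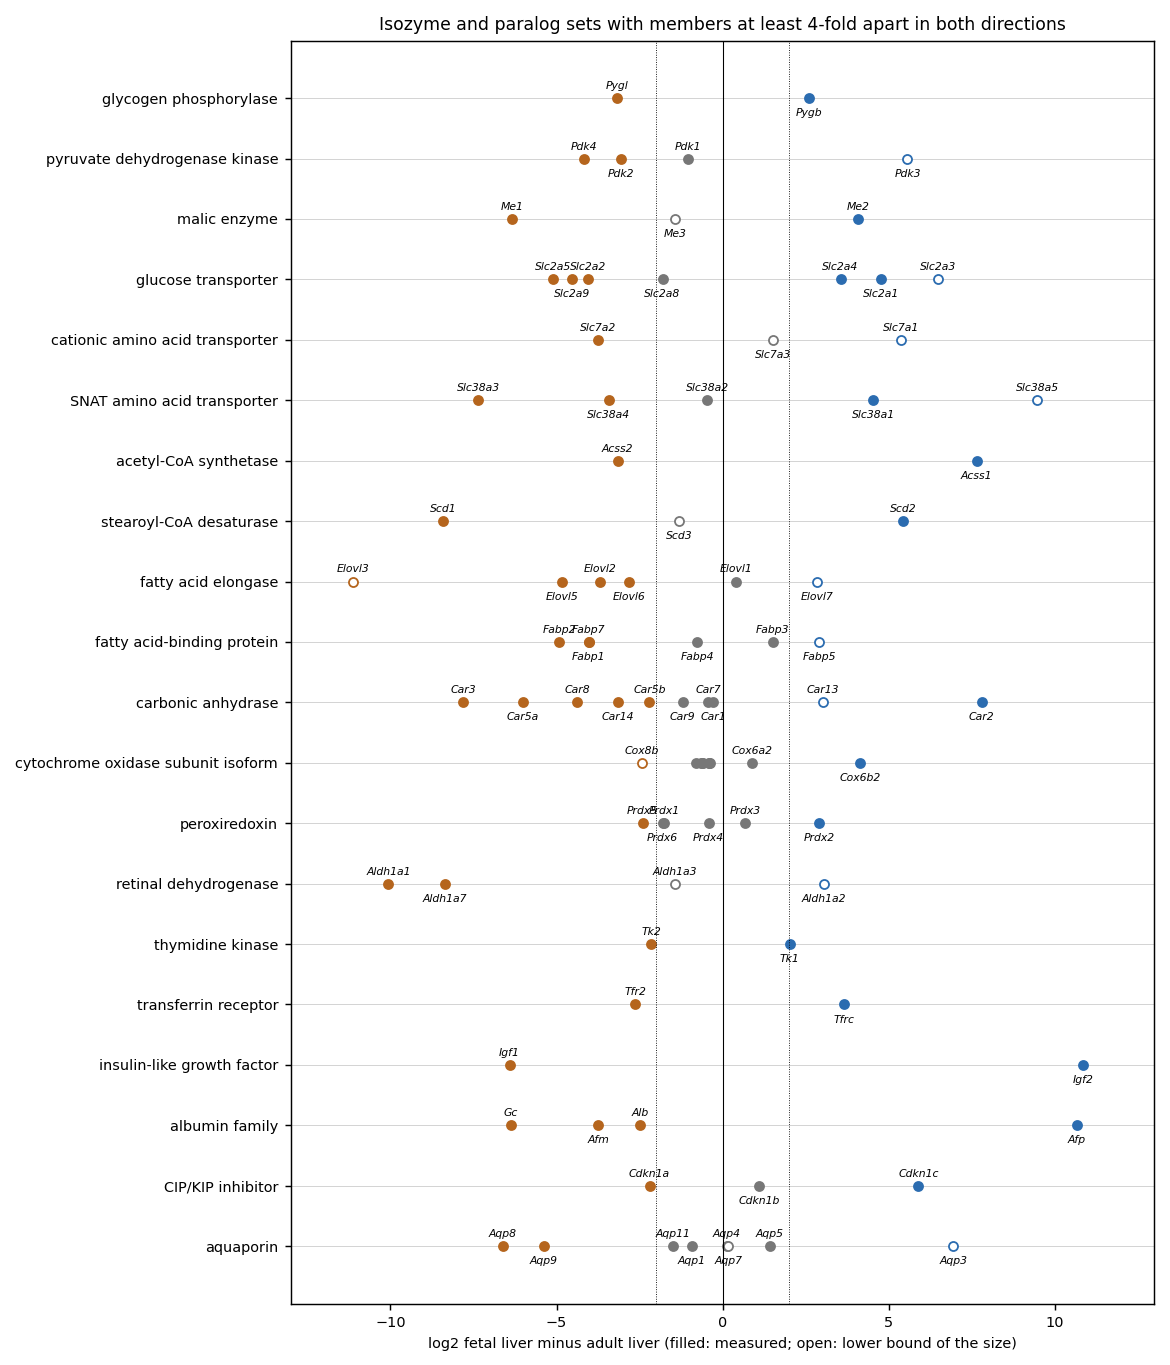
Log2 difference, fetal minus adult liver, of each compared member of the 20 sets with members at least 4-fold apart in both directions, with dotted lines at 4-fold. Filled points are measured in both livers and open points are lower bounds of the size; blue is higher in fetal liver, orange higher in adult liver, grey under 4-fold, and among glucose transporters Slc2a5, Slc2a9 and Slc2a2 lie to the left and Slc2a3, Slc2a1 and Slc2a4 to the right.

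Among the 20 sets, the transporters of glucose entry split clearly. Slc2a2, the transporter GLUT2 of hepatocytes, gave 9680 in the adult, 757 in the fetal liver and 5.91 in bone marrow, and was 16.7-fold higher in adult liver. Slc2a1, the widespread GLUT1 that is also the glucose transporter of red cell precursors, gave 1280, 45600 and 2670 and was 27.3-fold higher in fetal liver. Slc2a3 (GLUT3) gave 17.9, 2220 and 18400, or at least 89.8-fold higher, and Slc2a4 (GLUT4) gave 166, 2548 and 3086, or 11.7-fold higher in fetal liver. The fructose transporter Slc2a5 (1500, 56.8 and 9.21) and the urate transporter Slc2a9 (326, 18.3 and 149) lay on the adult side, 34.5-fold and 23.3-fold. Of the fetal forms, Slc2a1 was far brighter in fetal liver than in bone marrow, and Slc2a3 brighter in bone marrow.

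Hexokinases, which phosphorylate glucose once inside the cell, are given beside these sets and are not among the 20. Hexokinase I (Hk1; probe at chr10 61731916-61731975, mm9), the form of red cells and brain, gave 435 in the adult, 20200 in the fetal liver and 33100 in bone marrow and was 35.5-fold higher in fetal liver. Hexokinase II (Hk2), known from muscle and growing cells, gave 205, 1830 and 7150, or 6.83-fold higher in fetal liver. These forms were high in bone marrow as well, whereas the related Hkdc1 gave 51.4, 2220 and 5.24, so it was 33.0-fold higher in fetal liver and not well above background in bone marrow. Hk3, the myeloid form, differed little between the livers (126 and 146) and gave 12700 in bone marrow. The Hk1 fold depends on the probe, since 1 of its 6 probes gave 2.24-fold and 1 was dim.

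Further along carbohydrate metabolism, liver glycogen phosphorylase (Pygl) gave 35000 in adult liver and 5080 in fetal liver, 9.01-fold higher in adult liver, with 73400 in bone marrow. The brain form Pygb gave 66.6, 526 and 756 and was 6.04-fold higher in fetal liver. Pyruvate dehydrogenase kinases, which switch off pyruvate oxidation, split as well. Pdk4, a fasting-induced form, gave 910, 65.7 and 61.1 (18.1-fold higher in adult liver) and Pdk2 gave 388, 60.3 and 123 (8.41-fold), while Pdk3 gave 9.44, 1170 and 3250 (at least 47.4-fold higher in fetal liver). Malic enzyme 1 (Me1), the cytosolic source of NADPH for lipid synthesis, gave 6110, 97.8 and 57.2, or 81.7-fold higher in adult liver, and the mitochondrial Me2 gave 50.2, 1100 and 3570, or 16.8-fold higher in fetal liver.

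Amino acid handling included large differences. Gls2 (chr10 127646830-127646889), the liver glutaminase, gave 42400 in the adult, 397 in the fetal liver and 438 in bone marrow and was 140-fold higher in adult liver. Among sodium-coupled neutral amino acid transporters, Slc38a3 gave 26600, 213 and 177 (163-fold higher in adult liver) and Slc38a4 gave 10000, 1210 and 5.17 (10.8-fold). Slc38a5 gave 8.22, 17500 and 39700 (at least 708-fold higher in fetal liver), and Slc38a1 gave 118, 3570 and 6130 (23.1-fold). Cationic amino acid transport divided in the same way, with Slc7a2 at 281, 27.2 and 5.22 (13.5-fold higher in adult liver) and Slc7a1 at 17, 1030 and 2080 (at least 41.7-fold higher in fetal liver).

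In lipid metabolism the stearoyl-CoA desaturases, which put the first double bond into fatty acids, split between neighbouring genes. Scd1 (chr19 44469387-44469446) gave 142000 in the adult, 546 in the fetal liver and 1300 in bone marrow, 340-fold higher in adult liver. Its neighbour Scd2 (chr19 44381024-44381083) gave 443, 25100 and 8750, or 43.3-fold higher in fetal liver. Acetyl-CoA synthetases followed, with cytosolic Acss2 at 6460, 947 and 1040 (8.92-fold higher in adult liver) and mitochondrial Acss1 at 61, 16000 and 20100 (201-fold higher in fetal liver). The Acss2 fold depends on the probe. Another gave 9.6-fold towards adult liver, but a dim one (21.1 and 35.4) gave 1.28-fold towards fetal liver. With the mean of all probes this set did not split. Fatty acid elongases lay mostly on the adult side. Elovl3 gave 25700, 3.59 and 23.9 and was at least 2240-fold higher there, Elovl5 was 28.7-fold, Elovl2 12.8-fold and Elovl6 7.02-fold higher in adult liver, and Elovl7 gave 12.2, 177 and 1080, at least 7.16-fold towards fetal liver. The liver fatty acid-binding protein Fabp1 gave 149000, 11900 and 30.8 (16.4-fold higher in adult liver), and the epidermal form Fabp5 gave 4.47, 186 and 39.5 (at least 7.53-fold higher in fetal liver).

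Carbonic anhydrases, which hydrate CO2, had 10 members compared, and these lay far apart. Car2 (chr3 14900206-14900265), a red cell form, gave 146 in the adult, 42400 in the fetal liver and 148000 in bone marrow, 222-fold higher in fetal liver. Its neighbour Car3 (chr3 14871781-14871840), of low activity and abundant in liver and muscle, gave 98200, 568 and 121 and was 226-fold higher in adult liver, and the mitochondrial Car5a gave 1310, 26.5 and 33.9, or 64.6-fold. Car1, another red cell enzyme, gave 267, 288 and 20700, so the livers differed 1.21-fold. Water and glycerol channels differed too, Aqp3 giving 4.89, 3050 and 51.1 (at least 123-fold higher in fetal liver), Aqp8 70600, 934 and 55 (98.8-fold higher in adult liver) and Aqp9 2550, 80.3 and 636 (41.5-fold). Iron uptake receptors showed a smaller split. Tfrc, the transferrin receptor of red cell precursors, gave 482, 7926 and 12517 (12.6-fold higher in fetal liver), and Tfr2, the iron-sensing hepatocyte form, gave 26000, 5510 and 4960 (6.17-fold higher in adult liver).

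Among signalling genes, the insulin-like growth factors exchanged places. Igf2 (chr7 149836673-149836709), the fetal growth factor, gave 23.2 in the adult, 56215 in the fetal liver and 375 in bone marrow. It was 1850-fold higher in fetal liver, the largest fold measured on both arrays in that direction. Its adult signal lies near the lowest signal well above background, 18.9, so that size and rank are uncertain. Igf1 (chr10 87393516-87393575), the growth hormone-dependent factor of adult liver, gave 27706, 424 and 1603 and was 85.4-fold higher in adult liver, and its 4 probes ran from 31.7-fold to 85.4-fold. The cyclin-dependent kinase inhibitors split with Cdkn1c, an imprinted growth restrainer, at 158, 12300 and 252 (59.5-fold higher in fetal liver) and Cdkn1a at 385, 110 and 343 (4.60-fold higher in adult liver). Retinaldehyde is oxidised by Aldh1a1, which gave 103000, 126 and 21800 (1069-fold higher in adult liver), and by Aldh1a2, which gave 18.2, 204 and 343 (at least 8.26-fold towards fetal liver). The 4 remaining sets held Tk1 (4.04-fold) and Prdx2 (7.52-fold) on the fetal side against Tk2 (4.44-fold) and Prdx5 (5.30-fold), Cox6b2 (17.6-fold) against Cox8b (at least 5.41-fold), and the albumin family above. Tk1 and Tk2 lie close to 4-fold. Cox6b2 and Cox8b are forms of different cytochrome oxidase subunits, so that set split across subunits and not within 1 of them. The other form of each, Cox6b1 (1.34-fold) and Cox8a (1.33-fold), stayed under 4-fold.

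Blood-forming cells were measured beside these forms through bone marrow. All 24 fetal forms were well above background in bone marrow and 17 were within 4-fold of it after scaling. Over all 1705 genes higher in fetal liver these shares were 95.9% and 79.3%, and the forms' own shares are read against them as near the background. The 7 that lay further off were Igf2, Afp, Slc2a1, Scd2, Aqp3, Cdkn1c and Fabp5, each higher in fetal liver than in bone marrow. In the same samples, 11 of the 12 erythroid markers passed 4-fold towards fetal liver (median of the 12, 103-fold, with 7 of them bounds). The sum of the 12 scaled levels was 53.8 in the adult, 1010 in the fetal liver and 727 in bone marrow. It is led by the brightest probes, Alas2 (15200) in adult and Slc4a1 (138000) in fetal liver, and does not measure cell content. In fetal liver all 12 were above background, and 5 were in adult liver. The part of these cells in the isozyme differences was not tested. Of 8 fetal forms with several probes above background, 4 passed 4-fold on every probe, as did 12 of 13 such adult forms, and no probe of either passed it the other way.

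**Figure D3:**
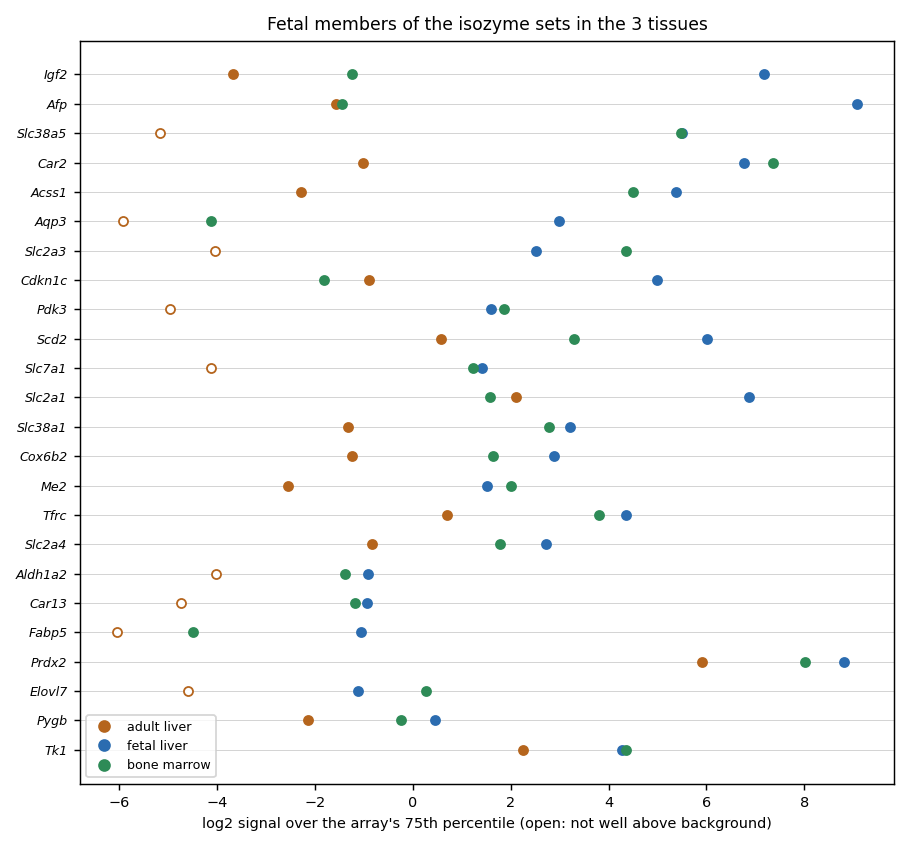
Log2 signal over each array's 75th percentile of the 24 fetal forms, in adult liver (orange), fetal liver (blue) and bone marrow (green), 1 array each, with open points not well above background. Green points lie near blue ones for most forms, 17 of 24 within 4-fold, and far from them for Igf2, Afp, Aqp3 and Cdkn1c.

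Not every pair that textbooks describe passed in both directions. The pairs named here were chosen after their values were seen. Pyruvate kinase Pkm gave 347 in the adult, 4560 in the fetal liver and 18900 in bone marrow (10.1-fold higher in fetal liver), but the liver gene Pklr gave 613, 348 and 214, a 2.30-fold difference. Methionine adenosyltransferase Mat1a gave 47000, 61.6 and 5.99 (998-fold higher in adult liver) against 7410, 29200 and 27600 for Mat2a (3.01-fold higher in fetal liver). The heme synthesis genes Alas1 (4950, 909 and 16200; 7.12-fold higher in adult liver) and Alas2 (15200, 54500 and 156000; 2.74-fold higher in fetal liver) likewise parted with 1 form under 4-fold. Metallothioneins, the zinc and copper stores of fetal liver, lay on the same side instead, Mt1 giving 666, 70576 and 7835 (81.0-fold) and Mt2 1200, 184000 and 12700 (117-fold), both higher in fetal liver than in either other tissue.

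Globin genes differed by amounts that varied from gene to gene. The embryonic genes Hbb-bh1 (4.44 in the adult, 20600 in the fetal liver and 684 in bone marrow) and Hba-x (4.38, 4640 and 8.9) were at least 834-fold and at least 188-fold higher in fetal liver. Embryonic Hbb-y gave 81.5, 45200 and 37000 and was 424-fold higher. The adult gene Hbb-bt gave 35500, 361000 and 422000, 7.78-fold higher in fetal liver and similarly bright in bone marrow. Probes of neighbouring globin genes, Hbb-y among them, may share sequence, and a rule by developmental stage was not tested. The RNA-binding proteins Igf2bp1 (4.68, 2620 and 5.68; at least 106-fold) and Lin28b (4.07, 979 and 5.06; at least 39.6-fold), known from fetal tissues, and the chromatin protein Hmga2 (11.2, 2030 and 30; at least 82.2-fold), were picked after the values were seen and were high in fetal liver alone.

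Families defined by symbol were next counted whole. Of 69 families with 5 or more genes compared, 18 had members 4-fold or more higher in adult liver and none in fetal liver, 15 the reverse, 31 both and 5 neither. Medians were above 0, towards fetal liver, in 26 of them, and the median of all genes compared was 0.05 on the log2 scale. Olfactory receptors, which have no known role in liver, serve as a reference for dim probes. Of 208 compared, 12 (5.77%) were higher in fetal and 26 (12.5%) in adult liver, against 12.0% and 14.2% of all genes. Bounds made up 70 of the 208 folds. The family's median of 1.58-fold towards adult liver changes sign under spike-in scaling.

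**Figure D4:**
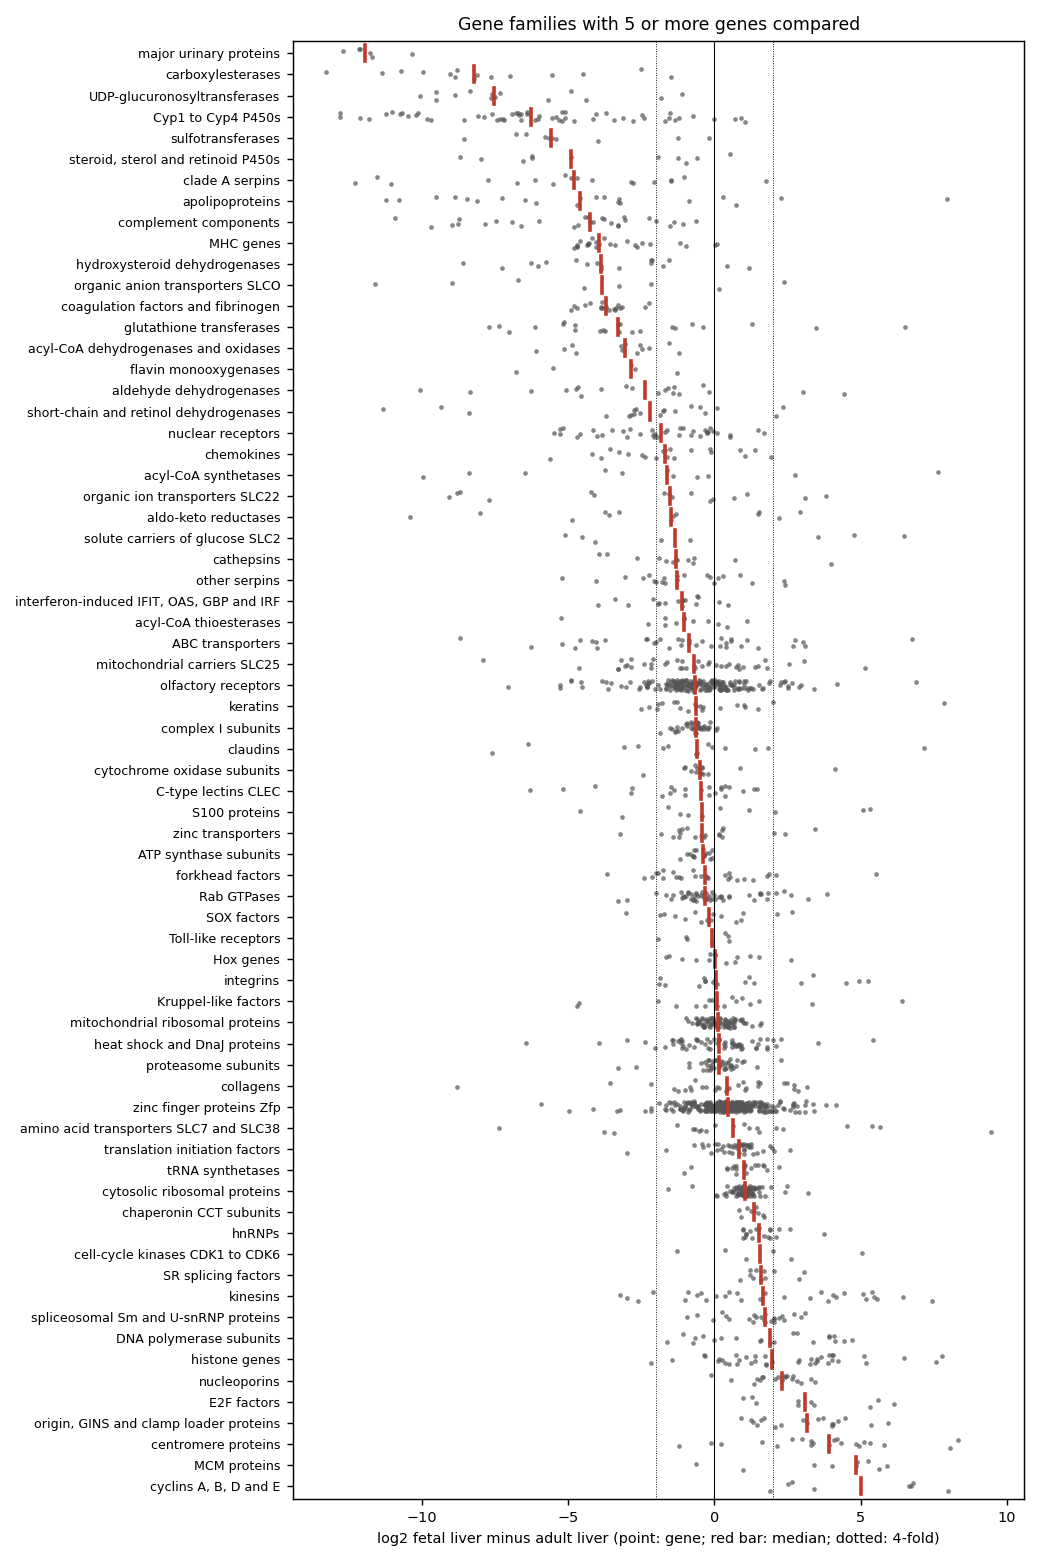
Log2 difference, fetal minus adult liver, of each compared gene (points) in the 69 families with 5 or more genes compared, ordered by median (red bars), with dotted lines at 4-fold. Major urinary proteins and carboxylesterases stand at the adult end, and cyclins, MCM proteins and centromere proteins at the fetal end; olfactory receptors and zinc finger proteins spread around 0.

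Families that clear foreign compounds lay mostly on the adult side. Cytochromes P450 of families Cyp1 to Cyp4 numbered 58 compared, of which 48 passed 4-fold towards adult liver and 0 towards fetal liver, with a median of 77.1-fold. Glucuronosyltransferases (12 of 14 higher in adult liver, median 187-fold), carboxylesterases (14 of 15, 299-fold) and sulfotransferases (8 of 10) had none on the fetal side. Bounds made up 26 of 58 folds of these P450s, 7 of 14 of glucuronosyltransferases and 5 of 15 of carboxylesterases. The carboxylesterase Ces3b gave 162000 in the adult, 21.4 in the fetal liver and 6.81 in bone marrow. Its 9897-fold difference was the largest measured on both arrays. Its fetal signal lies near the lowest signal well above background, 15, so that size and rank are uncertain. Glutathione transferases had members on both sides, with 16 of 23 higher in adult liver. The microsomal Mgst2 (12.9, 2250 and 36800, at least 91.1-fold) and Mgst3 (423, 6210 and 7430, 11.2-fold) were higher in fetal liver and bright in bone marrow too. Aldehyde dehydrogenases (10 of 20 higher in adult and 2 in fetal liver), short-chain and retinol dehydrogenases (10 of 20 and 2) and aldo-keto reductases (6 of 13 and 2) also had both. Fetal-side shares of these 4 families ran from 8.7% to 15.4%, against 12.0% of all genes.

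Secreted plasma proteins followed. All 19 coagulation genes compared passed 4-fold towards adult liver (median 12.9-fold), for example F13b (4420 in the adult, 195 in the fetal liver and 5.81 in bone marrow; 29.6-fold). Fgb, the fibrinogen beta chain, gave 145000, 20400 and 32.2 and was 9.29-fold higher in adult liver, so it was bright in both livers and at different levels. Complement components (25 of 29, median 19-fold) and clade A serpins (14 of 18, 27.5-fold) had no fetal-side member past 4-fold. Apolipoproteins did, with 16 of 21 higher in adult liver and 2 in fetal liver. Apol8 gave 3.81, 6110 and 10100 (at least 247-fold higher in fetal liver), whereas Apob, the core protein of lipoproteins, gave 15500, 2160 and 5.67 (9.38-fold higher in adult liver). The 6 major urinary proteins, pheromone carriers made by adult liver, were all higher there with a median of 3930-fold, though their genes are near-identical and the probe of Mup1 matches 3 of them.

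MHC genes were another whole-family difference, with 21 of 25 at least 4-fold higher in adult liver, 0 in fetal liver and a median of 15.5-fold. The class I heavy chain H2-K1 gave 98555 in the adult, 6265 in the fetal liver and 95700 in bone marrow (20.6-fold higher in adult liver), and its light chain B2m gave 37500, 2960 and 70500 (16.6-fold). The class II gene H2-Aa gave 188, 5.26 and 4540, at least 16.4-fold higher in adult than in fetal liver and brightest in bone marrow. H2 genes are close relatives and their probes may cross-hybridise. The immunoproteasome subunits Psmb8 (2610, 534 and 20100; 6.39-fold) and Psmb9 (2810, 375 and 16400; 9.80-fold) were the 2 members higher in adult liver among 42 proteasome genes, of which 1 was higher in fetal liver. These shares of 4.76% and 2.38% lie under the 14.2% and 12.0% of all genes compared. Another immunoproteasome subunit, Psmb10 (5520, 10000 and 19600), lay 1.39-fold towards fetal liver.

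Cell division families were on the fetal side. Cyclins of types A, B, D and E were at least 4-fold higher in fetal liver for 7 of 8 genes (median 32.5-fold), centromere proteins for 17 of 21 (15.1-fold), origin, GINS and clamp loader proteins for 13 of 19 (8.93-fold) and E2F factors for 7 of 10 (8.52-fold), with 0 on the adult side in each. Ccna2, the S-phase cyclin, gave 66.8 in the adult, 22400 in the fetal liver and 39400 in bone marrow (257-fold), while the growth-factor-dependent Ccnd1 gave 546, 2675 and 741 (3.75-fold). Cenpe, the kinetochore motor, gave 40.6, 17200 and 25500 (324-fold). Histone genes were more mixed, with 19 of 39 higher in fetal and 1 in adult liver. Kinesins had 14 of 30 higher in fetal liver, and 4 higher in adult liver, a share near the 14.2% of all genes.

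The MCM proteins, whose core members form the replicative helicase, were higher in fetal liver for 7 of the 9 compared (median 28.5-fold). Mcm5 gave 193 in the adult, 15300 in the fetal liver and 38300 in bone marrow (60.6-fold), Mcm6 gave 929, 60900 and 102000 (50.1-fold) and Mcm7 gave 1380, 29600 and 63400 (16.4-fold). Mcm2 (38.4-fold), Mcm3 (29.7-fold), Mcm4 (28.5-fold) and Mcm8 (10.7-fold) complete the 7. All were bright in bone marrow, and Mcm9 (46.7, 121 and 336) and Mcm10 (12200, 10400 and 12400) differed less than 2-fold.

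Promoters of 3 helicase subunits are shown because members that differ together share letters. The motif of E2F factors, searched as TTTCCCGC or TTTGGCGC on both strands after the values were known, was found in 5 of 8 MCM promoters of the table. It was in 6.20% of promoters of genes higher in fetal liver (84 of 1354), 1.51% of those higher in adult liver (24 of 1591), 2.76% of all genes compared and 1.63% of the whole table. It began 149 bases before the start in Mcm5, 110 and 47 in Mcm6 and 165 in Mcm7. The sequences are from RefSeq on GRCm38.p6, 5′ to 3′ along the gene, with matches on either strand in capitals.
Mcm5, chr8:75109339-75109508, plus strand: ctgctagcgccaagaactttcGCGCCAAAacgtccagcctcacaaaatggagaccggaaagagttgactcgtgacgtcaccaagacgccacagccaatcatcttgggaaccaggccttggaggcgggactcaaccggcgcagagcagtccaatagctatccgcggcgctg
Mcm6, chr1:128359706-128359875, minus strand: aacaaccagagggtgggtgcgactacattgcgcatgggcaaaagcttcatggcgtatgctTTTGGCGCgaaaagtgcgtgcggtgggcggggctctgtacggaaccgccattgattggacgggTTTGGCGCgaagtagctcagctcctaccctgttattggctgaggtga
Mcm7, chr5:138171884-138172053, minus strand: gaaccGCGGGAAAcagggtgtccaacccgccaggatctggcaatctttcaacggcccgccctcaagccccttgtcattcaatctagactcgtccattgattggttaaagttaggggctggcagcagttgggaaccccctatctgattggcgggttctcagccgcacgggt

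Housekeeping families differed little, or evenly. None of 78 mitochondrial ribosomal proteins, 36 subunits of respiratory complex I or 17 of ATP synthase passed 4-fold in either direction. Their medians were 1.08-fold towards fetal, 1.56-fold towards adult and 1.30-fold towards adult liver, and the last changes direction under quantile normalization and spike-in scaling. Cytosolic ribosomal proteins lay mostly towards fetal liver (median 2.05-fold), yet only 3 of 81 passed 4-fold, among them Rpl22l1 (5460 in the adult, 38100 in the fetal liver and 42500 in bone marrow; 5.34-fold), and Rpl21 (9700, 4220 and 13400) lay the other way. CCT chaperonin subunits (0 of 9 past 4-fold, median 2.54-fold towards fetal liver) did likewise. RNA-processing families went further, with 9 of 24 Sm and U-snRNP proteins, 3 of 11 SR splicing factors and 4 of 19 hnRNP proteins at least 4-fold higher in fetal liver. So did nucleoporins, the proteins of the nuclear pore, with 12 of 19. Each of these families had 0 higher in adult liver.

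A few families hid single members far from the rest. The claudins, tight junction proteins, had 4 of 14 higher in adult liver, with Cldn3 at 8430 in the adult, 57.1 in the fetal liver and 70.3 in bone marrow (193-fold). Cldn13 went the other way with 3.77, 3550 and 16600, at least 144-fold higher in fetal liver. Keratins of hepatocytes, Krt8 (22800, 7650 and 52.7) and Krt18 (25400, 9550 and 1050), stayed under 4-fold, while Krt20, a keratin of gut and bladder epithelium, gave 4.75, 5790 and 13.5 (at least 234-fold higher in fetal liver). Among nuclear receptors 18 of 38 were higher in adult and 0 in fetal liver, for example the bile acid receptor Nr1h4 (8470, 286 and 5.8; 38.7-fold).

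Pathways were counted from gene lists in the same manner. Serine synthesis and mitochondrial one-carbon metabolism, which supply carbon units for nucleotides, had 5 of 7 genes at least 4-fold higher in fetal liver and 0 in adult liver (median at least 79.7-fold). Phgdh, the first enzyme of serine synthesis, gave 58.7 in the adult, 28000 in the fetal liver and 10800 in bone marrow (365-fold), and Psat1, the next, gave 25, 10900 and 3910 (at least 334-fold). Mitochondrial Mthfd1l (71.4, 8270 and 8980; 88.6-fold) and Mthfd2 (13.9, 1970 and 1730; at least 79.7-fold) went with them, but Shmt2 in the same chain gave 5290, 4970 and 5760, a 1.39-fold difference. The cytosolic folate enzyme Aldh1l1 went the other way with 45300, 766 and 230 (77.3-fold higher in adult liver). Psph, the last enzyme of serine synthesis, was 5.43-fold higher in fetal liver.

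Nucleotide synthesis was also on the fetal side, with 8 of 13 pyrimidine and deoxynucleotide genes (median 6.99-fold) and 3 of 9 purine genes (3.39-fold) past 4-fold and 0 in adult liver. The ribonucleotide reductase subunit Rrm2 gave 136 in the adult, 8450 in the fetal liver and 8300 in bone marrow (47.5-fold). Of 8 pentose phosphate genes compared, 2 were higher in fetal and 1 in adult liver, and the other 5 differed less than 2-fold. Rpia gave 1340, 15200 and 31400 (8.68-fold higher in fetal liver), cytosolic G6pdx gave 419, 5180 and 43200 (9.46-fold higher in fetal liver), and H6pd of the endoplasmic reticulum gave 15600, 1960 and 3190 (10.4-fold higher in adult liver). Cholesterol synthesis had 1 of 19 genes higher in fetal liver, Sqle (570, 3190 and 1500, 4.28-fold). It had 3 higher in adult liver, Sc5d (9.47-fold), Tm7sf2 (5.15-fold) and Ebp (4.58-fold). These shares of 5.26% and 15.8% lie under and near the 12.0% and 14.2% of all genes compared.

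Hepatocyte pathways lay on the adult side. All 8 urea cycle genes (median 23.3-fold) and all 11 genes of aromatic amino acid breakdown (45.3-fold) passed 4-fold towards adult liver, as did 17 of 18 of bile acid synthesis and transport (54.1-fold). Cps1, which starts the urea cycle, gave 34000 in the adult, 16.2 in the fetal liver and 5.67 in bone marrow (at least 2744-fold), while Otc, the next enzyme, gave 10800, 551 and 6.19 (25.6-fold). Tat, the tyrosine aminotransferase that appears around birth, gave 36500, 162 and 372 (295-fold). Genes of the periportal zone (8 of 9, median at least 154-fold) and of the pericentral zone (9 of 10, 11.1-fold) were higher in adult liver alike. The tricarboxylic acid cycle differed less, with 4 of 17 higher in adult liver (Suclg2 8.23-fold, Sdha 5.22-fold, Sdhb 4.55-fold and Suclg1 4.49-fold) and a median log2 difference of -0.53, no larger than the shift that spike-in scaling brings. Peroxisome biogenesis genes had 6 of 15 in adult liver, led by Pex11a (22349, 401 and 663; 72.9-fold).

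**Figure D5:**
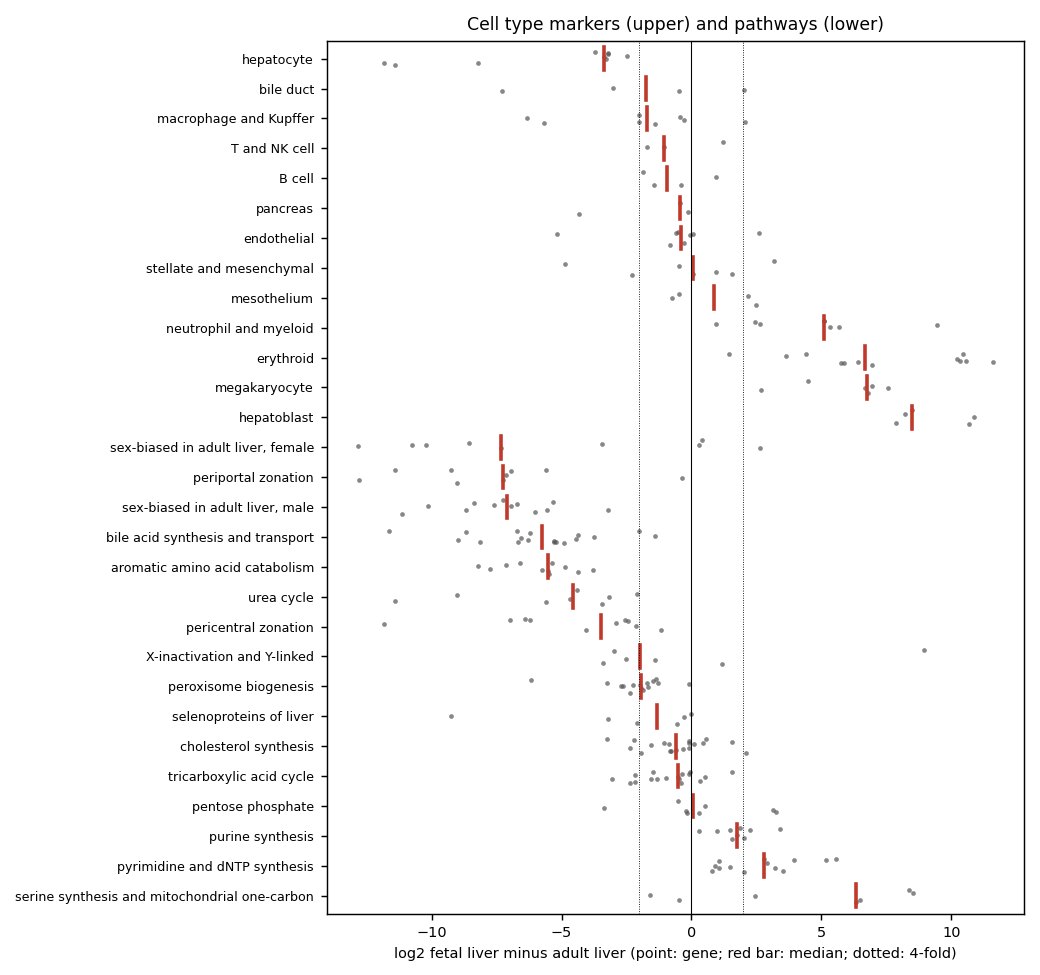
Log2 difference, fetal minus adult liver, of each compared gene (points) in the cell type marker lists (upper rows) and pathway lists (lower rows) with 3 or more genes compared, with medians as red bars and dotted lines at 4-fold. Erythroid, megakaryocyte, neutrophil and hepatoblast markers lie right of the 4-fold line apart from Alas2 and 1 neutrophil gene, Elane, and hepatocyte markers, urea cycle and bile acid genes lie mostly to its left.

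Markers of other cells were counted too. All 6 megakaryocyte markers (median 107-fold) and 7 of 8 neutrophil and myeloid markers (34.3-fold, with 6 of the 8 bounds) passed 4-fold towards fetal liver. Their summed scaled levels were 1.41 in the adult, 157 in the fetal liver and 168 in bone marrow for the former list, and 2.76, 147 and 1800 for the latter. These sums too are led by the brightest probes, S100a9 for the latter list in each tissue, and do not measure cell content. Mpo, a granule enzyme of myeloid precursors, gave 21.4 in the adult, 19600 in the fetal liver and 250000 in bone marrow (at least 701-fold), but Elane, of the same granules, gave 4.71, 47.1 and 21600. No B cell marker (of 4 compared) and no T or NK cell marker (of 3) passed 4-fold. Of 8 macrophage markers, 4 passed 4-fold towards adult liver and 1 towards fetal liver. Clec4f, specific to adult Kupffer cells, gave 3850, 63 and 10.8 (79.9-fold higher in adult liver) and Vsig4 gave 592, 3.46 and 386 (at least 51.6-fold), and Cd5l (4.10-fold) and C1qa (4.02-fold) only just passed, while Marco gave 2300, 12500 and 5140 (4.16-fold higher in fetal liver) and Timd4 differed 1.22-fold. Endothelial markers had 1 of 8 on each side, and Stab2 of sinusoidal endothelium gave 1290 and 1110. Of possible neighbouring organs, the pancreas marker Amy2a5 gave 233 in adult and 4.05 in fetal liver (at least 20.3-fold), the gut marker Fabp2 gave 29700 and 1290 (30.1-fold), and Cdx2 of gut was not well above background in either. The pancreas markers Ctrb1 (438 and 417) and Cela1 (31.2 and 37.6) differed less than 2-fold. Of the fat markers Adipoq was not well above background in either liver, and Cidec, a lipid droplet protein, gave 13600 and 20.1 (885-fold higher in adult liver). Stellate and mesenchymal markers had 1 of 7 higher in fetal and 2 in adult liver, bile duct markers 1 of 4 and 2, and mesothelial markers 2 of 4 and 0. Of all genes compared 12.0% were higher in fetal and 14.2% in adult liver. With so few markers, these counts and the endothelial ones are not read as differences of the cell types. The part of any of these cells in the differences above was not tested.

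Within the red cell list, Alas2, the erythroid enzyme of heme synthesis, differed only 2.74-fold while Kel, a blood group protein, gave 8.2 in the adult, 31800 in the fetal liver and 27500 in bone marrow (at least 1287-fold). Both promoters are shown because they share the letters AGATAA, the motif of GATA factors, searched on both strands after the values were known. It was found in 5 of 8 erythroid marker promoters, but also in 8.05% of promoters of genes higher in fetal liver, 10.1% of those higher in adult liver and 7.51% of all compared. Among genes at least 32-fold apart it was in 11.2% of those higher in fetal liver and 17.1% of those higher in adult liver. Gata1, the red cell factor itself, gave 42.2, 3248 and 4426 (58.9-fold higher in fetal liver). The match began 86 bases before the start in Alas2 and 56 in Kel, in RefSeq sequence on GRCm38.p6.
Alas2, chrX:150547247-150547416, plus strand: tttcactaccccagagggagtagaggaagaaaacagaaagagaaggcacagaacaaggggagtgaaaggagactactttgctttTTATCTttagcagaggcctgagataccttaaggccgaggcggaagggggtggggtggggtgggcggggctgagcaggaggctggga
Kel, chr6:41704326-41704495, minus strand: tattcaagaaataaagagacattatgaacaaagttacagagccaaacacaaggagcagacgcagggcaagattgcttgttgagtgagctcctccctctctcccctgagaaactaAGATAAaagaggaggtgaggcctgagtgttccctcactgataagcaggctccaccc

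Probes of a gene did not always give the same answer. Among genes called higher in fetal liver with 2 or more probes above background, every probe passed 4-fold for 283 of 705, and among those called higher in adult liver for 455 of 670. A probe passed 4-fold the other way in 6 genes, Ero1b, Prrx1, Rrp1b, Tmlhe, Tmpo and Igh-VJ558. In Tmpo, which encodes the lamina-associated polypeptides of the nuclear envelope, the probe at chr10 90610374-90610433 (mm9) gave 2050 in the adult, 18400 in the fetal liver and 39500 in bone marrow (6.87-fold higher in fetal liver). The probe at chr10 90620244-90620303 gave 260, 3.59 and 5.57 and was bright in adult liver only. In Ero1b, an oxidase of the endoplasmic reticulum, the probe at chr13 12702812-12702871 gave 5.04, 164 and 71.6, high in fetal liver, and that at chr13 12701235-12701294 gave 2100, 80.2 and 1370, low there.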

How the data were processed

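Per the labels' protocols, total RNA prepared with a tissue kit was labelled with Cy3 for a 1-colour Agilent array. Per the submitters' processing notes, the scanner software was Agilent Feature Extraction 10.5.1.1. The deposited scanner intensity is background-subtracted and detrended within each array and not normalized between arrays, per the file headers. Control spots and outlier spots were left out, log2 of the processed intensity was taken, each array's 75th percentile was subtracted, and spots of a probe were averaged, in Python 3.11.15 with numpy 2.4.6, pandas 2.3.3 and scipy 1.17.1. The authors also deposited a series table whose raw intensity column is, to within 1%, the scanner file's signal error for 45018 of 45018 spots on either liver array. The deposited normalized ratio, that error over its 75th percentile (medians 0.187 for adult and 0.130 for fetal liver, linear, not centred), served only as an alternative.

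Of 41174 probes, 25001 were named through the accession and the RefSeq gene table, 5960 through a current and 1753 through an older symbol, 95 kept the file's name and 8365 are unnamed. A gene was represented by the probe well above background on most arrays, ties going to the brightest. A difference was counted from 4-fold. Named genes are the 12 largest measured differences and 8 largest bounds a side, the extreme members of each family, the members of the isozyme sets that split, pathway members past 4-fold and the markers. Others were chosen after their values were seen. Some genes are not reported here, and the isozyme and pathway lists were counted without them. The members and lists were chosen with earlier results of these data known. No test was run, since each side has 1 array. The computation was tested on simulated data. Alternatives changed the scaling, background correction, probe choice, dim-probe filter, signal source and threshold. Probe coordinates are as the array file gives them, on mm9.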

Additional observations from a re-analysis of the deposited data

Results flagged for a closer look

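Probes with no gene name, which stand outside the comparison of genes, also carried signal. Of 8365 such probes 2997 were well above background in at least 1 liver and were compared, against 1 of 153 negative control spots well above background on each liver array. Among them 245 were at least 4-fold higher in fetal liver and 295 in adult liver. Both shares lie under the 12.0% and 14.2% of the named genes compared.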

How the results depend on the processing

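With 1 array a side, no setting speaks to variation between animals, and dim probes limit the size of folds more than their direction. No paired analysis was possible because each group has 1 sample. At 2-fold in place of 4-fold, 3813 genes were higher in fetal and 3830 in adult liver and 35 isozyme sets split. At 8-fold these were 845, 1175 and 12. Spike-in scaling gave 2643 genes higher in fetal liver. Normexp background correction gave 1106 genes higher in fetal liver and 13 sets, and requiring both arrays well above background gave 13 sets. Other counts stayed within 1.5 times the values reported. Of 314 named genes past 4-fold, 284 remained so with normexp, 288 with spike-ins, 294 with the authors' series table and 301 with the mean of probes. Sizes were less stable: the difference moved by more than 0.27 (log2), the 95th percentile of the spread between spots, for 254 of 476 named genes with normexp, 165 of 476 with the authors' table, 104 of 475 with the mean of probes and all 478 with spike-ins, with 0 reversed. Fewest settings (at most 5 of 10) kept the elongase and cytochrome oxidase sets.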

Other observations

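The labels give no sex for either liver, and genes known to differ by sex were read as values. Xist, the RNA of the inactive X chromosome, gave 4.67 in the adult, 12100 in the fetal liver and 5.64 in bone marrow. The Y-linked genes Ddx3y (884, 108 and 1240), Eif2s3y (1040, 173 and 2840) and Kdm5d (66, 10.7 and 235) were higher in adult liver, by 10.7-fold, 7.86-fold and at least 5.75-fold. Fetal liver thus held both Xist and, at lower levels, Ddx3y and Eif2s3y. Of P450 genes known as female-biased in mouse liver, Cyp3a41a gave 105000 in adult and 19.1 in fetal liver, by a probe that matches 2 genes, and Cyp3a44 gave 19700 and 3.79. Of male-biased genes, Elovl3 gave 25700 and 3.59. The list of female-biased genes had 6 of 9 compared higher in adult liver and 1 in fetal liver, and the male-biased list 12 of 12 higher in adult liver.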
